A study of Homo sapiens with 2 samples.

Results

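The genes described here carry out the G1/S transition and DNA replication. A list of 56 named genes was searched by Ensembl gene ID in the expression tables of 2 RNA-seq libraries, and 27 of the 16145 genes listed in either library belonged to it. Control listed 26 of them and AG listed 27. The other 29 genes of the list had no value in either table and were not analysed here. Both libraries came from cells labelled HAL-01, a human leukaemia cell line given as pre-B acute lymphoblastic leukaemia. Each group was 1 library, Control (treatment not given in the sources used here) and AG (0.8 mM 1,5-AG, that is 1,5-anhydroglucitol, a polyol that resembles glucose, for 24 h). The question was how expression in the AG library differed from Control. Without replicates there was no test between conditions, so values, counts and counting errors are given and no p-value.

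Replication is prepared in G1. D-type cyclins with CDK4 or CDK6, and later E-type cyclins with CDK2, phosphorylate the RB proteins, which releases E2F transcription factors and with them a large group of S phase genes. The origin recognition complex (ORC), CDC6 and CDT1 load the MCM helicase onto origins, which is called licensing, and CDC45 and the GINS complex then turn the helicase on. Polymerases alpha, delta and epsilon copy the strands with the PCNA clamp and its RFC loader, and FEN1 and LIG1 process and join the pieces of the lagging strand. Ribonucleotide reductase, thymidylate synthase and dUTPase supply the nucleotides. In leukaemia cell lines these genes are mostly read as a sign of proliferation.

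E2F factors act on many of these genes through a short promoter word, so the promoters of MCM7, STMN1 and CDT1 are shown. Among the expressed members with a RefSeq promoter entry, they are the most abundant of those with the most E2F words. Each is the 250 bases before the start of the gene in RefSeq (GRCh38.p14), written 5′ to 3′ on the strand of the gene, with E2F words in capitals. The words searched on both strands were TTTCCCGC, TTTCGCGC, TTTGCCGC and TTTGGCGC, so that GCGGGAAA is the first of them read on the other strand. MCM7 lies at chr7:100101398-100101647 on the minus strand, STMN1 at chr1:25906420-25906669 on the minus strand and CDT1 at chr16:88803539-88803788 on the plus strand.
MCM7: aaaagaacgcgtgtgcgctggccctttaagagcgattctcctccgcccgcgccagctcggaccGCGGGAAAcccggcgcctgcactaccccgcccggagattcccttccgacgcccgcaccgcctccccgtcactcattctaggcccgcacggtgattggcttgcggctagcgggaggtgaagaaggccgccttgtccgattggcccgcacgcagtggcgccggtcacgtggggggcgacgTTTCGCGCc
STMN1: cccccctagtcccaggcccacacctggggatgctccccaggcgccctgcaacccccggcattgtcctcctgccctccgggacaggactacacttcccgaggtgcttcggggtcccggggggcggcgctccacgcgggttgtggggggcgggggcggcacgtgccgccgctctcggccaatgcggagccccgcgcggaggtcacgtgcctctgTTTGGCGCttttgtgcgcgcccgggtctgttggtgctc
CDT1: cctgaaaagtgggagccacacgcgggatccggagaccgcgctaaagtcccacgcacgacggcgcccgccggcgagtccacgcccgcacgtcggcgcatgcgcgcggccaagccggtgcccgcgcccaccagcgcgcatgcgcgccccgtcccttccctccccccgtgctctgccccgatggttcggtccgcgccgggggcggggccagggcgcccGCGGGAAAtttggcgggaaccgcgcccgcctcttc
MCM7 holds 2 such words, which begin 187 and 9 bases before the start. STMN1 holds 1 that begins 38 bases before it, and CDT1 holds 1 that begins 35 bases before it. For all 3 genes the GENCODE annotation also has starts further upstream than the RefSeq start used here. A match describes these letters and is not evidence of a bound site.

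Totals of 16240451 fragments in Control and 14857372 in AG were implied by the FPKM and lengths of genes with a single transcript. The 26 members listed in both libraries rested on 543 to 13656 fragments in Control and 407 to 10135 in AG, and the mean of each was at least 5 FPKM (fragments scaled by gene length and by library total). The lineage label was not borne out by its listed markers. Of 13 genes of B cell precursors, 9 were listed in either library, and CD79A, a signalling chain of the B cell receptor, stood at 0.275 FPKM against 0.351 in AG. Of 12 genes of granulocytes and monocytes 7 were listed, and their summed level was 939 FPKM in Control and 483 in AG, led by CTSG at 743 and 194 and S100A9 at 66.3 and 131. None of 7 T and NK cell genes was listed, 1 of 6 erythroid genes was, at 0.0472 FPKM in Control, and the 2 listed of 5 stromal genes did not exceed 0.358. The granulocyte and monocyte genes thus differed between the libraries alongside the replication genes, and their part in the results below was not tested. In bulk RNA, fewer cells in a phase of the cycle and less RNA per cell cannot be told apart.

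The replication and G1/S genes were mostly slightly lower in the AG library. Of the 26 listed in both, 24 had a log2 ratio of AG to Control below 0, against 56.8% of the 5528 expressed genes, those listed in both libraries whose mean reached 1 FPKM. The ratio was taken as log2((AG FPKM + 1)/(Control FPKM + 1)), which understates the change of low genes. The median log2 ratio of the 26 was -0.19, beside -0.03 over all 5528 genes and -0.03 over the 3142 whose mean reached 5 FPKM. On the plain scale the median ratio of AG to Control FPKM was 0.871 for the members and 0.975 for the 5528 genes. Dividing AG by that median ratio left 18 of the 26 members below 0 (69.2%), against 50.0% of all genes by construction, with a median of -0.16.

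The differences were small for nearly all members. Only CDK6 among the 26 was lower by at least 1.5-fold, and no member was higher by as much, beside 3.33% and 3.60% of the 5528 genes and 1.30% and 2.42% of the 3142 at 5 FPKM or more. A single gene in 26 is too few to read against these shares. For 16 members the 95% counting interval of the FPKM ratio lay below 1, beside 23.0% of the 5528 genes and 28.1% of the 3142, for RPA2 it lay above 1, beside 16.8% and 21.8%, and for 9 it included 1. The interval narrows with depth, so the share was also taken among the 2790 genes with at least 500 fragments in Control, a limit set after the values were seen. There it was 31.4% below 1 and 21.8% above 1. These intervals are exact Clopper-Pearson intervals of the recovered fragment numbers and leave out the spread between cultures, covering counting error only.

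**Figure D1:**
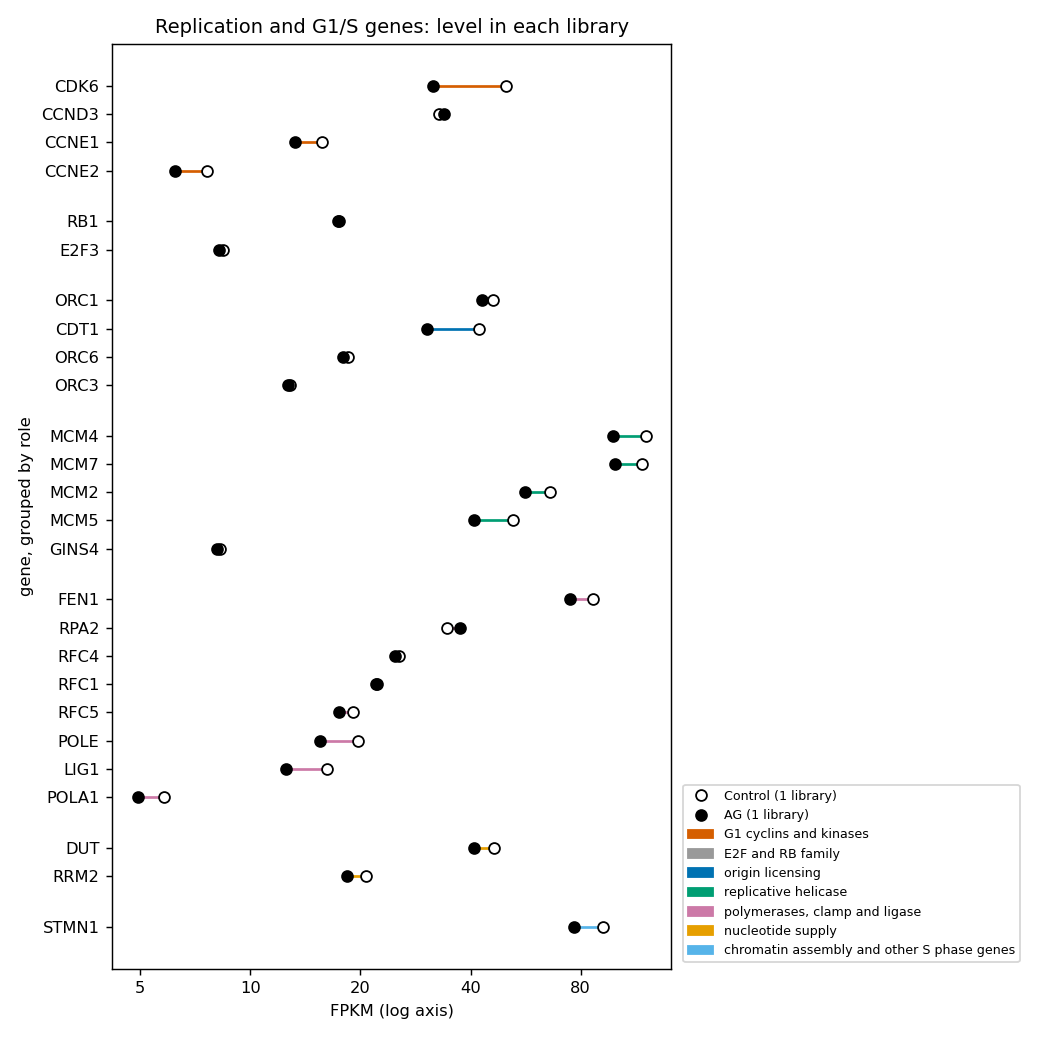
FPKM of the 26 genes listed in both libraries (x axis, log scale), by role and by mean level within a role. Open circles are Control, filled circles are AG, 1 library each, and the coloured line joins the pair. AG lies to the left for 24 of 26 genes, with the longest line at CDK6 (50.1 and 31.7 FPKM).

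Among the G1 cyclins and kinases, CDK6 stood lowest and cyclin D3 did not follow it. CDK6, the kinase that D-type cyclins activate in blood cells, stood at 50.1 FPKM in Control against 31.7 in AG, for a ratio of 0.633 (95% counting interval 0.612 to 0.653) from 9956 and 5761 fragments. Its log2 ratio of -0.64 was the lowest of the 26, and 2.80% of the 5528 genes lay lower still. The GENCODE exons of CDK6 overlap those of AC002454.1, so reads in the shared stretch are of uncertain assignment. How they were assigned was not tested. CCND3, cyclin D3, stood at 32.8 FPKM in Control against 33.8 in AG, for a ratio of 1.03 (0.977 to 1.08), so the intervals of the kinase and its cyclin did not overlap. CCNE1, cyclin E1, which activates CDK2 late in G1, had 15.7 FPKM against 13.3, with a ratio of 0.844 (0.748 to 0.952). Its relative CCNE2 had 7.60 against 6.23 FPKM, for a ratio of 0.819 (0.719 to 0.933). Both E-type cyclins were thus lower in AG by similar ratios, with overlapping intervals. CDK2, CDK4 and CCND2 were not analysed here.

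The E2F and RB family differed least of the role groups, with 2 genes to speak for it. RB1, the retinoblastoma protein that holds E2F in check, stood at 17.5 FPKM in Control against 17.3 in AG, for a ratio of 0.989 (0.925 to 1.06). E2F3, an activating E2F, had 8.41 against 8.22 FPKM, for a ratio of 0.977 (0.877 to 1.09). Both intervals included 1, and both log2 ratios lay just above 0 once AG was divided by the median ratio of all genes. E2F2, another activating E2F, was listed in AG only, at 0.394 FPKM. It has no value in Control and was not compared. E2F1 and RBL1 were not analysed here.

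Among the licensing genes the loader CDT1 and the ORC subunits parted. CDT1, which brings the MCM helicase to origins and is destroyed in S phase, stood at 42.1 FPKM in Control against 30.5 in AG, for a ratio of 0.724 (0.674 to 0.779) from 1886 and 1250 fragments. It was the second lowest ratio of the 26. ORC1, the ORC subunit whose level varies through the cycle, had 46.0 against 43.0 FPKM, for a ratio of 0.934 (0.879 to 0.992). ORC6 had 18.5 and 17.9 FPKM and ORC3 had 12.8 and 12.7, with ratios of 0.969 (0.894 to 1.05) and 0.989 (0.896 to 1.09). The interval of CDT1 lay below those of the 3 ORC genes, and the intervals of the ORC genes overlapped one another. The median log2 ratio of the 4 was -0.07. ORC2, CDC6 and GMNN were not analysed here.

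MCM4 and MCM7 were the most abundant members, and the 4 listed MCM genes were lower together. MCM2, MCM4, MCM5 and MCM7 are subunits of the same hexamer, which unwinds DNA at the fork. MCM4 stood at 121 FPKM in Control against 97.8 in AG, for a ratio of 0.811 (0.791 to 0.832). MCM7 had 118 against 99.4 FPKM, for a ratio of 0.843 (0.816 to 0.871). MCM2 had 66.0 against 56.3, for a ratio of 0.854 (0.819 to 0.890), and MCM5 had 52.3 against 40.9, for a ratio of 0.781 (0.752 to 0.812). The ratios of these 4 lay within a narrow band, though the interval of MCM5 lay just below those of MCM7 and MCM2. GINS4, a subunit of the complex that activates the helicase, had 8.25 against 8.12 FPKM, for a ratio of 0.984 (0.884 to 1.09), whose interval included 1. The median log2 ratio of the 5 was -0.24. Of the 5 intervals 4 lay below 1, beside 23.0% of the 5528 genes and 31.4% of those with at least 500 fragments in Control. MCM3, MCM6, MCM10, CDC45, GINS1, GINS2 and GINS3 were not analysed here.

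**Figure D2:**
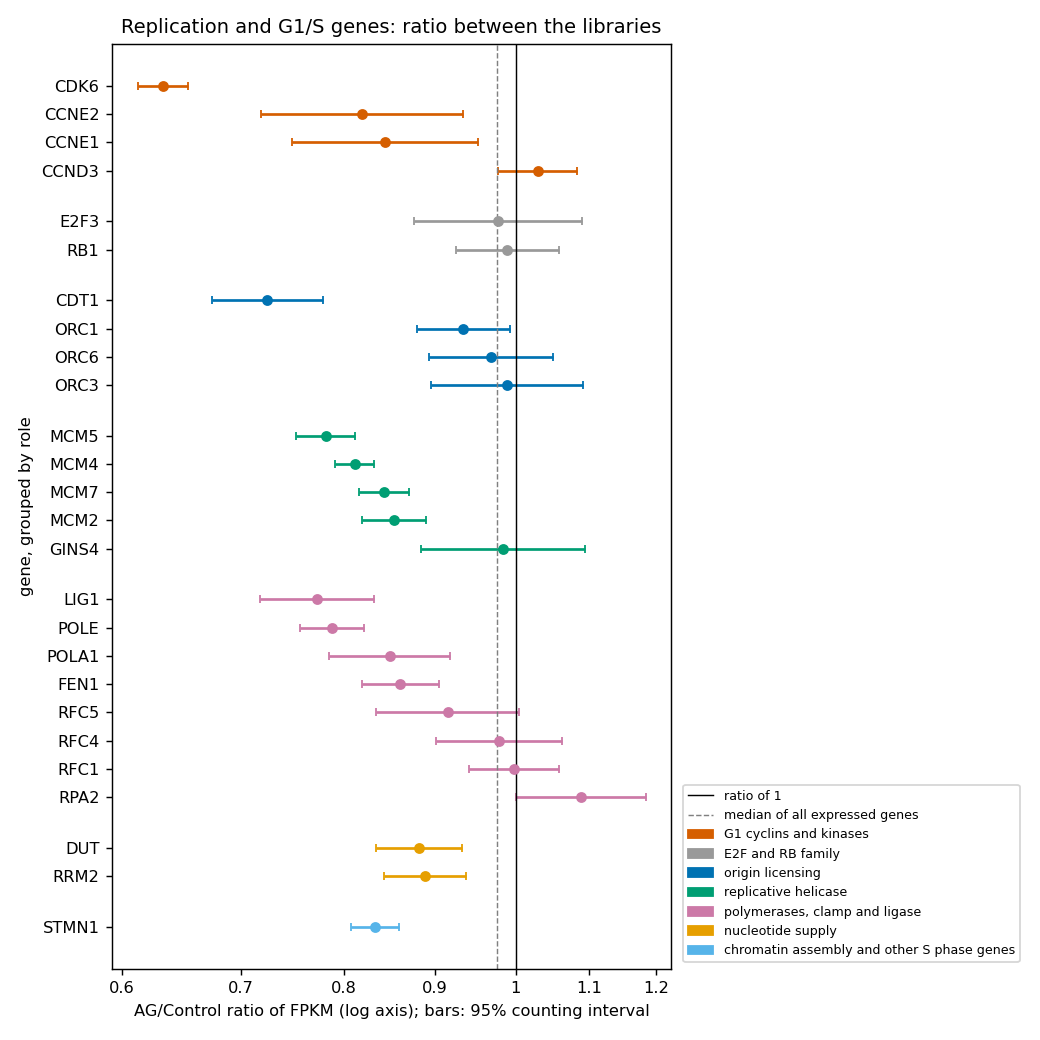
Ratio of AG to Control FPKM (x axis, log scale) for the 26 genes, by role, with exact 95% counting intervals as bars. The solid line marks a ratio of 1 and the dashed line the median of the 5528 expressed genes (0.975). The MCM genes, CDT1, POLE, LIG1, STMN1 and CDK6 lie left of both lines with their whole intervals, and the RB, ORC3, ORC6, RFC and GINS4 intervals reach the line at 1.

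Of the 8 polymerase, clamp loader and ligase genes, the polymerases and the lagging strand enzymes were lower, and the intervals of the clamp loader genes included 1. POLE, the catalytic subunit of polymerase epsilon, stood at 19.7 FPKM in Control against 15.6 in AG, for a ratio of 0.788 (0.756 to 0.821). POLA1, the catalytic subunit of polymerase alpha, had 5.79 against 4.92 FPKM, for a ratio of 0.849 (0.785 to 0.918). LIG1, the ligase that seals Okazaki fragments, had 16.2 against 12.6 FPKM, for a ratio of 0.773 (0.718 to 0.832). FEN1, the flap endonuclease that trims them, had 86.7 against 74.6 FPKM, for a ratio of 0.861 (0.819 to 0.905). These 4 of the 8 intervals lay below 1, beside 23.0% of the 5528 genes and 31.4% of those with at least 500 fragments in Control. In the clamp loader, RFC1 had 22.1 FPKM in both libraries, a ratio of 0.998 (0.941 to 1.06). RFC4 had 25.4 and 24.9 FPKM and RFC5 had 19.1 and 17.5, with ratios of 0.978 (0.901 to 1.06) and 0.916 (0.835 to 1.004). The interval of RFC1 lay above those of POLE, POLA1, LIG1 and FEN1, whereas those of RFC4 and RFC5 overlapped those of POLA1 and FEN1. RPA2, a subunit of the protein that coats single-stranded DNA, had 34.5 against 37.5 FPKM, for a ratio of 1.09 (1.0003 to 1.18), and was the highest of the 26. RPA2 has 3 pseudogenes in GENCODE named after it, with which reads can be shared. The median log2 ratio of the 8 was -0.16. POLA2, PRIM1, POLD1, PCNA, RFC2, RFC3 and RPA1 were not analysed here.

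Nucleotide supply was represented by a pair of genes, both slightly lower. RRM2, the regulated subunit of ribonucleotide reductase, stood at 20.7 FPKM in Control against 18.4 in AG, for a ratio of 0.889 (0.843 to 0.937). DUT, the dUTPase that keeps uracil out of DNA, had 46.5 against 41.0 FPKM, for a ratio of 0.882 (0.834 to 0.933). DUT has 8 pseudogenes in GENCODE and RRM2 has 3, so both values are uncertain. RRM1, TYMS and TK1 were not analysed here. STMN1, stathmin, a microtubule destabiliser abundant in dividing cells, had 92.3 against 76.9 FPKM, for a ratio of 0.833 (0.808 to 0.859). It was the single listed gene of its group. SLBP, UHRF1, CHAF1A and CHAF1B were not analysed here.

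Set side by side, the medians of the role groups ran from -0.26 for STMN1 alone, -0.24 for the helicase and -0.24 for the G1 cyclins and kinases through -0.17 for nucleotide supply and -0.16 for polymerases, clamp and ligase to -0.07 for licensing and -0.02 for the E2F and RB family. Groups of 1 to 8 genes do not fix this order, and within 4 of the groups members with intervals below 1 stood beside members whose ratio was close to 1. In the 12 members averaging 30 FPKM or more the median log2 ratio was -0.23 with 10 below 0, and in the 14 others the median was -0.08 with 14 below 0. RPA2 and CCND3, the members above 0, were both among the 12. This split was chosen after the values were seen.

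**Figure D3:**
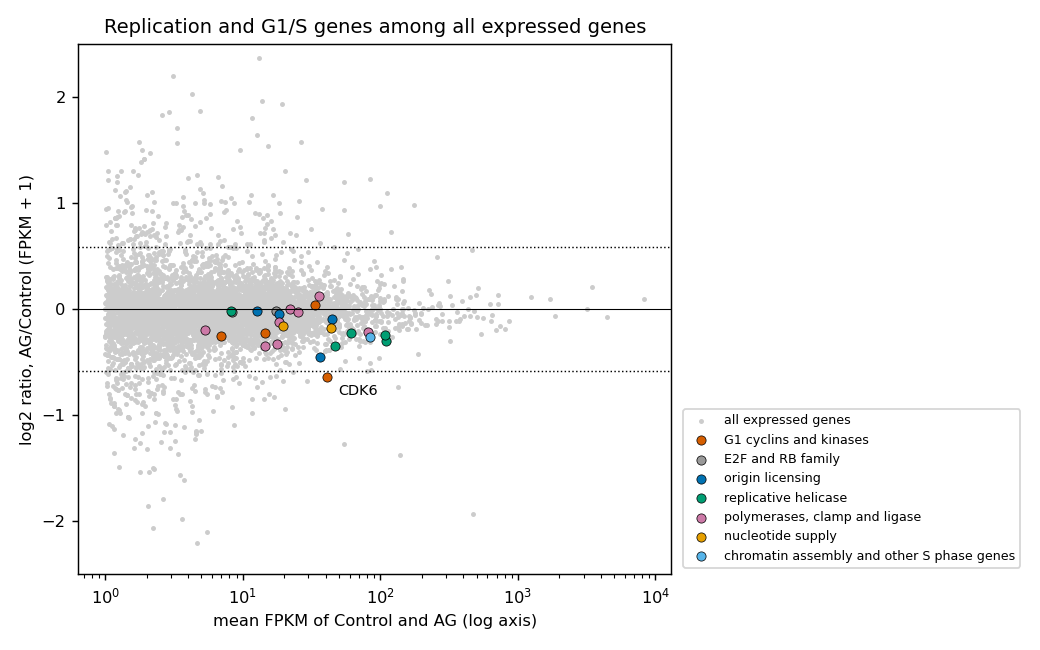
Log2 ratio of AG to Control (y axis, FPKM + 1) against mean FPKM (x axis, log scale) for the 5528 expressed genes in grey, with the 26 members coloured by role. Dotted lines mark 1.5-fold, and 2 genes lie outside the y range. CDK6 is the single member below the lower dotted line.

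Gene assignment touches many members. Of the 26, 15 share exonic positions with another gene on either strand or have a pseudogene named after them, among them MCM7 (AP4M1), FEN1 (FADS2 and TMEM258), RFC4 (EIF4A2) and LIG1 (AC011466.3). Without these 15, all 11 remaining members had a log2 ratio below 0 (56.8% of all expressed genes did), with a median of -0.20. Of these, RB1, ORC3 and RFC1 turned above 0 when AG was divided by the median ratio, to 0.019, 0.019 and 0.031. An interval below 1 was found for 7 of the 11, beside 23.0% of the 5528 genes and 31.4% of those with at least 500 fragments in Control. CDT1, MCM4, MCM5, POLA1, POLE, ORC1 and CCNE1 are these 7. CDK6 is among the 15 left out, so none of the 11 passed 1.5-fold.

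The promoters of the members held the E2F words shown above more often than promoters at large did. Of 27305 RefSeq promoters, 2.79% had at least 1 of the 4 words in the 250 bases before the start. Among the 3683 expressed genes with a promoter entry it was 4.64%, or 4.45% with the members left out. Of the 49 members with an entry, 19 (38.8%) did, and MCM6, whose expression was not analysed here, had 4. CCAAT, the word bound by NF-Y, was searched on both strands and free to overlap E2F words. It was in 33.0% of all promoters, in 36.3% of those of expressed genes and in 26 of the 49 (53.1%). Among the 21 expressed members with an entry, the 8 with an E2F word had a median log2 ratio of -0.25 and the 13 without had -0.12. MCM4, MCM5, CCNE2, GINS4 and RPA2 are expressed members without an entry and are in neither set. The 8 were MCM7, CDT1, E2F3, LIG1, ORC3, POLA1, POLE and STMN1, of which E2F3 and ORC3 had log2 ratios of -0.03 and -0.01. Outside the members, 163 expressed genes with an E2F word had a median of -0.08 with 69.3% below 0, and 3499 without had -0.03 with 56.2% below 0. For CCAAT the order among the expressed members was the opposite, with medians of -0.12 in the 11 with the word and -0.22 in the 10 without, and outside the members the medians were -0.03 and -0.03. These are descriptions of 2 libraries, and CDK6, with the lowest ratio, had neither word in this window.

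Further genes of the pathway, from lists that name no member, had a median nearer to 0. Of 72 such genes 28 were listed in both libraries and 27 averaged 1 FPKM or more. Of these 27, 22 were below 0 (56.8% of the 5528 expressed genes were), with a median log2 ratio of -0.10. For 17 the interval lay below 1, beside 23.0% of the 5528 genes and 31.4% of those with at least 500 fragments in Control. For 2 it lay above 1, beside 16.8% and 21.8%. Some of the 27, such as ASF1B below, had fewer than 500 fragments in Control, so the shares at that limit are not matched to them in depth. Among the 27, 1 was at least 1.5-fold lower and 1 at least 1.5-fold higher, beside 3.33% and 3.60%, too few to read against these shares. That pair belonged to the nucleotide and chromatin list and went opposite ways. SAMHD1, the hydrolase that breaks down dNTPs, stood at 32.9 FPKM in Control against 76.6 in AG, for a ratio of 2.33 (2.26 to 2.41). ASF1B, a histone chaperone of S phase, had 2.96 against 0.756 FPKM, for a ratio of 0.256 (0.153 to 0.410), from 94 and 22 fragments. ATAD2, a chromatin ATPase and an abundant gene of that list, had 66.5 and 62.0 FPKM.

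In the list of further licensing, firing and fork genes, 13 were expressed, with a median log2 ratio of -0.17. Of these, 10 were below 0, beside 56.8% of the 5528 expressed genes, and 8 intervals lay below 1, beside 23.0%. POLE4, an accessory subunit of polymerase epsilon, was the lowest at 21.5 FPKM in Control against 16.5 in AG, for a ratio of 0.769 (0.684 to 0.864). WDHD1, which ties polymerase alpha to the helicase, was the highest at 13.7 and 14.4, a ratio of 1.05 (0.972 to 1.13). POLD2 of polymerase delta had 59.4 and 55.3 FPKM, and CDC7, the kinase that fires licensed origins, had 41.3 and 36.1. Among further cyclins, E2F and RB family genes, 4 of 5 were below 0 (median -0.10), beside the same 56.8% of expressed genes. E2F7, a repressing E2F, had 9.89 against 7.18 FPKM, for a ratio of 0.726 (0.658 to 0.801). MYBL2, a transcription factor of the G2/M programme, had 124 against 135, for a ratio of 1.08 (1.04 to 1.12), and TFDP1, the partner of E2F on DNA, had 82.0 and 77.3. The interval of E2F7 lay below those of E2F3 and, at 0.905 to 0.982, of TFDP1.

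The remaining lists had medians of -0.10 or nearer to 0. All 4 expressed genes of replication stress and damage response were below 0, beside 56.8% of the 5528 expressed genes, with a median of -0.08. For USP1 alone, at 49.6 and 47.0 FPKM, did the interval (0.899 to 0.998) lie below 1. FANCD2, of the Fanconi anaemia pathway, had 9.76 and 9.23 FPKM and WEE1, the kinase that restrains mitotic entry, had 7.69 and 7.16, the highest and lowest log2 ratio of the 4 at -0.07 and -0.09. Of 8 expressed G2/M genes 7 were below 0, beside the same 56.8%, with a median of -0.10. Of their intervals 5 lay below 1, beside 23.0% of the 5528 genes and 31.4% of those with at least 500 fragments in Control. CDC20, the activator of the anaphase-promoting complex, had 458 and 439 FPKM, and AURKA, a kinase of the mitotic spindle, had 52.7 and 47.1. BUB1, a checkpoint kinase, had the lowest ratio at 0.857 (0.817 to 0.899) and FOXM1, a G2/M transcription factor, the highest at 1.02 (0.934 to 1.11). Of the CDK inhibitors, CDKN1C was the single gene listed, at 0.447 FPKM in Control and 0.136 in AG, under the expression limit, and CDKN1A, CDKN1B and the CDKN2 genes were not analysed here.

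**Figure D4:**
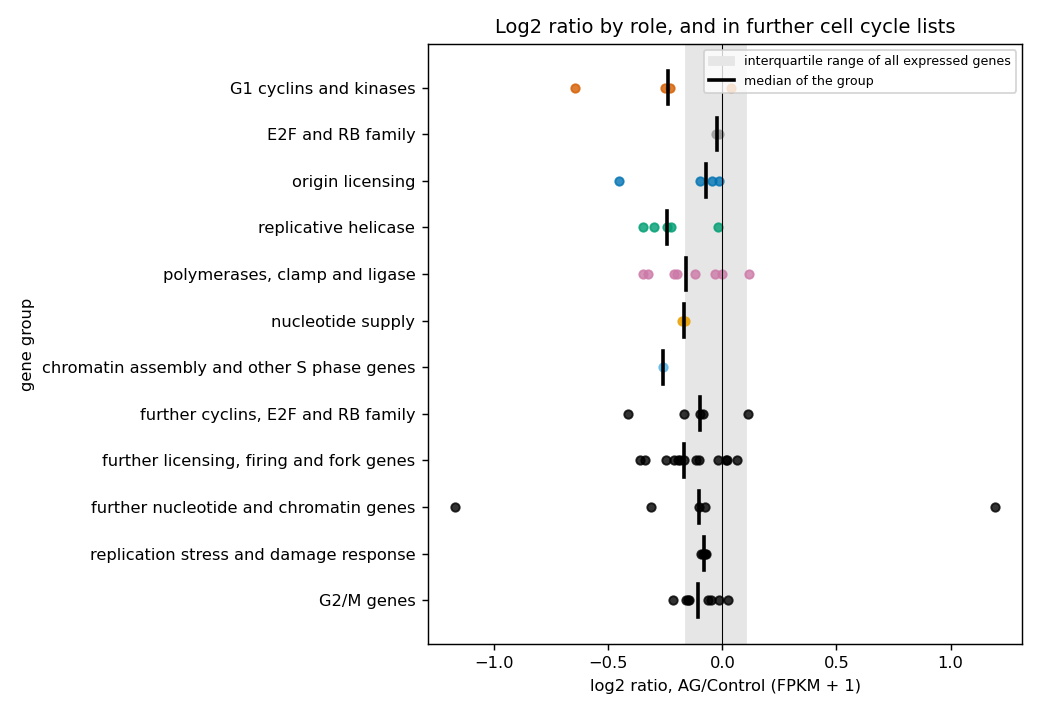
Log2 ratio of AG to Control (x axis, FPKM + 1) for each expressed gene, by role (coloured) and in 5 further lists (black), with the median of each group as a bar. The grey band is the interquartile range of the 5528 expressed genes (-0.16 to 0.10). The bars of STMN1, the helicase, the G1 cyclins and kinases, nucleotide supply and the further licensing, firing and fork genes lie left of the band, the last 2 only just, and SAMHD1 and ASF1B lie far to either side.

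By the GENCODE 29 annotation of GRCh38, CDK6 (ENSG00000105810), a protein-coding gene like the others here, lies on chromosome 7 from 92604921 to 92836594 on the minus strand. CDT1 (ENSG00000167513) lies on chromosome 16 from 88803213 to 88809258 and MCM5 (ENSG00000100297) on chromosome 22 from 35400063 to 35425430, both on the plus strand. MCM7 (ENSG00000166508) lies on chromosome 7 from 100092728 to 100101940, POLE (ENSG00000177084) on chromosome 12 from 132623753 to 132687365 and LIG1 (ENSG00000105486) on chromosome 19 from 48115445 to 48170603, all on the minus strand. RPA2 (ENSG00000117748) lies on chromosome 1 from 27891524 to 27914746 on the minus strand. Values are FPKM of whole genes, not of transcripts.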

How the data were processed

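RNA-seq was done on 2 libraries, 1 per group, made with a stranded mRNA kit, per the labels' protocols. The authors deposited FPKM per Ensembl gene. The tools named are HISAT2, HTSeq, Cufflinks and Trimmomatic, with hg38 as the build, per the submitters' processing notes; versions, annotation and strand setting were not given in the sources used here. Because FPKM is relative to the library total, abundant genes can shift all others.

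IDs were matched to GENCODE 29 (97.1% of 16145). Totals were recovered from FPKM times length of single-transcript genes, for 88.4% and 88.1% of which this gave whole fragment numbers within 0.01. Fragment numbers of each gene were then taken at the length, nearest to its GENCODE exon length, that gave whole numbers in both libraries. The compared members have more than 1 transcript each, so the check on single-transcript genes did not cover them. Genes needed a value in both libraries and a mean of at least 1 FPKM. The pseudocount was 1 FPKM, the fold 1.5, the confidence level 95%. The ratio and interval steps were tested on simulated fragments drawn with counting error only. Recovery of totals, lengths and fragment numbers from FPKM was not part of that test. The members and lists were chosen with earlier results of these data known. Any member could be named; of further lists, the 2 most abundant genes and the highest and lowest log2 ratio; of marker lists, the 2 most abundant. A few of these genes are not reported here. Alternatives changed the pseudocount, filter, scaling, fold and gene assignment. Scripts ran in Python 3.11.15 with scipy 1.17.1 for intervals, pandas 2.3.3 and numpy 2.4.6 for tables and matplotlib 3.10.9 for plots.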

Additional observations from a re-analysis of the deposited data

How the results depend on the processing

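With 1 library per group, no library could be left out, and no paired analysis was possible because each group has 1 library. The median log2 ratio of the members ran from -0.20 to -0.15 over 7 alternatives, and no member was higher by 1.5-fold under any of 9. The alternatives that changed the filter could not alter the member values, since each of the 26 averaged at least 5 FPKM. A threshold of 0.32 on the log2 scale, below that of 1.5-fold (0.58), gave 5 lower members and 2-fold gave 0. The shares of all expressed genes past these other thresholds were not taken, so the counts describe the members only. Leaving out members of uncertain assignment, which removes 15 of 26, gave 11 below 0, 0 lower by 1.5-fold and 7 with an interval below 1. Division by the median ratio, a shift of 0.04 on the log2 scale, turned the E2F and RB median to 0.01, and turned E2F3 (0.0026), RB1 (0.019), ORC3 (0.019), GINS4 (0.011), RFC1 (0.031) and RFC4 (0.0040) above 0, and a common total turned RFC1 (0.0042), all by less than their counting error. Members at ratios near 1 are therefore not assigned a direction. CDK6 was -0.59 with a pseudocount of 5 FPKM. A common total left 23 members below 0.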
